A study of Mus musculus with 11 samples.

Results

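The level of 10 enzymes that modify heparan sulfate was followed across the cell types of the mouse cortex: the N-deacetylase and N-sulfotransferases Ndst1, Ndst2, Ndst3 and Ndst4, the 3-O-sulfotransferases Hs3st1, Hs3st2, Hs3st4 and Hs3st5, and the 6-O-sulfotransferases Hs6st2 and Hs6st3. They were taken by gene symbol, and all 10 were found among the 31053 genes of the matrices. Ndst4 was picked because its level was higher in oligodendrocytes of P301S mice, so that difference is given here as a description with no test, and the other 9 genes give its context within the family.

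Heparan sulfate is a long sugar chain carried by syndecans, glypicans and matrix proteins at the cell surface and in the extracellular space. Its chains are built by exostosin enzymes and then modified in the Golgi, where N-deacetylase and N-sulfotransferases start the process by replacing acetyl groups with sulfate. Later enzymes add sulfate at the 2-O, 6-O and, more rarely, 3-O positions, and the resulting patterns decide which proteins bind, among them growth factors and tau, which enters cells by way of such chains.

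Single-nucleus RNA-seq was performed on frozen cortex of 11 mice, 1 library per mouse, to ask how the P301S tau transgene and the activity of IKKβ in microglia alter the transcriptome of brain cells. Non-transgenic mice (ikbkb+/+, n = 4) were 9.8 to 10.85 months old, and P301S mice (ikbkb+/+;P301S+, n = 3), which carry human tau with the P301S mutation under the mouse prion promoter, were 9.15 to 10.75 months old. Knockout P301S mice (ikbkb-/-;P301S+, n = 2, 8.39 and 9.15 months) lost Ikbkb, the gene of IKKβ, in cells with tamoxifen-inducible Cre under Cx3cr1, and active IKKβ P301S mice (ikbkbCA;P301S+, n = 2, 9.8 and 10.85 months) expressed a constitutively active IKKβ through the same Cre. Per the study's methods, tamoxifen was given to induce the Cre, and littermate controls without Cre received it too. Mice without Cre carry the floxed Ikbkb or the silent active IKKβ allele unrecombined. Non-transgenic replicates 1 and 2, P301S replicates 1 and 2 and both knockout mice came from the floxed Ikbkb line, and the other 5 mice came from the active IKKβ line. The labels give all 11 mice as female, whereas the study's methods name male mice for its RNA-seq. Cre was carried only by the knockout and active IKKβ groups, so Cre itself and the change of IKKβ cannot be told apart.

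The libraries held 72007219 to 93205362 unique molecular identifiers (UMIs, each 1 captured RNA molecule), and 103065 nuclei were used. Pairs of libraries shared at most 45 barcodes. Nuclei were grouped by clustering and named after marker genes, which gave 11 types, of which 8 had at least 20 nuclei in every mouse and were tested. The 18417 oligodendrocyte-like nuclei raised all 10 of their markers, the 4337 microglia-like nuclei 10 of 10 and the 43761 excitatory neuron-like nuclei 7 of 7. The tissue named cortex also held 9861 striatal projection neuron-like nuclei, from 371 to 1597 per mouse. As checks of the labels, Ikbkb in microglia-like nuclei stood at 112 and 120 CPM (UMIs per 1000000 UMIs of a type in a mouse) in knockout mice against 136 to 148 in P301S mice, and the edgeR quasi-likelihood difference (log2 fold change of -0.28 ± 0.17, SE) was not called. Active IKKβ mice had 162 and 150 CPM of Ikbkb there, which differed from P301S mice by 0.13 ± 0.15 and was not called either, and counts over the whole gene cannot show a missing exon or tell the added allele apart. Xist, an RNA of the inactive X chromosome of females, had 753 to 1459 CPM in excitatory neuron-like nuclei of the 11 mice. The prion gene Prnp, whose promoter drives the transgene, was at 0.0831 to 0.318 CPM in excitatory neuron-like nuclei and was not called. Prn, a prion gene transcript chosen after its values were seen, had 0.615 to 0.923 CPM there in non-transgenic mice and 1.82 to 3.93 in the 7 mice with the transgene.

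Levels are given as CPM, the UMIs of a gene after scaling the summed UMIs of a type in a mouse to 1000000. UMIs were counted over introns as well as exons, and the members span 10833 bases (Ndst2) to 731475 bases (Hs6st3), so a level is compared between types for the same gene and never between genes. Types whose neighbours in the order overlapped over the mice are said to overlap. A gene is called highest in a type among these types only, and the classes of cortical neurons within them are ordered separately. Where single genotype groups lay apart, this is a description only, and no share over all genes is given.

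The N-deacetylase and N-sulfotransferases had unlike distributions. Ndst1, the widely expressed member that modifies most heparan sulfate, stood at 12.2 ± 2.80 CPM (SD, n = 11) in oligodendrocyte precursor-like nuclei and 21.0 ± 3.73 in oligodendrocyte-like nuclei, with the remaining tested types in between. In oligodendrocyte-like nuclei Ndst1 had 18.001, 20.7, 12.1 and 20.4 CPM in non-transgenic mice, 19.6, 20.2 and 24.3 in the P301S group, 23.2 and 25.0 in knockout mice and 22.2 and 24.8 in active IKKβ mice. Every neighbouring pair of types in its order overlapped. Ndst2, best known from mast cells, where it sulfates heparin, was highest in microglia-like nuclei at 32.5 ± 10.6 CPM and lowest among the tested types in excitatory neuron-like nuclei at 6.17 ± 0.324, again with overlap between all neighbours. In microglia-like nuclei Ndst2 had 23.4, 49.4, 25.9 and 19.9 CPM in non-transgenic mice, 18.5, 46.6 and 40.4 in the P301S group, 26.3 and 38.7 in knockout mice and 33.5 and 35.5 in active IKKβ mice, and all pairs of groups overlapped. Ndst3, a brain-enriched isoform, was highest in mural-like nuclei at 373 ± 106 CPM, followed by inhibitory (176 ± 31.3) and excitatory neuron-like nuclei (169 ± 40.1), and lowest in astrocyte-like nuclei at 25.4 ± 6.45. The mural value rests on 27 to 81 nuclei per mouse. Among 12 classes of cortical neurons, named after markers in the same way and given without the ending -like, Ndst3 was highest in layer 5 extratelencephalic neurons at 576 ± 95.2 CPM, and the values of its first 4 classes, which also held layer 5 intratelencephalic, Lamp5 and Pvalb neurons, lay apart from the fifth, layer 2/3 at 165 ± 34.3.

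Ndst4 (chromosome 3, 125404076 to 125728899, plus strand, mm10), the isoform with weak deacetylase and strong sulfotransferase activity, had its highest means in neurons of non-transgenic mice. Its mean over the 4 mice was 73.2 ± 54.8 CPM in excitatory and 58.3 ± 25.9 CPM in inhibitory neuron-like nuclei, followed by 31.6 ± 14.5 in oligodendrocyte-like, 29.0 ± 29.6 in mural-like, 27.7 ± 16.2 in microglia-like, 13.6 ± 4.46 in oligodendrocyte precursor-like, 13.0 ± 6.23 in astrocyte-like and 9.35 ± 6.39 in striatal projection neuron-like nuclei. Every neighbouring pair in this order overlapped over the mice.

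The 3-O-sulfotransferases, which place the rarest sulfate group, differed in the cells where each was highest. Hs3st1, the enzyme that makes the antithrombin-binding site, had 85.2 ± 13.7 CPM (SD, n = 11) in oligodendrocyte-like nuclei and 90.4 ± 51.2 in fibroblast-like nuclei (n = 10), with the lowest level in astrocyte-like nuclei at 4.69 ± 1.99. In oligodendrocyte-like nuclei its values were 89.7, 77.5, 71.4 and 80.9 CPM in non-transgenic mice, 68.8, 110.4 and 107 in the P301S group, 84.5 and 75.9 in knockout mice and 92.9 and 77.8 in active IKKβ mice. The 4 groups overlapped. Among cortical neurons Hs3st1 was set apart in Pvalb neurons, at 89.8 ± 13.2 CPM against 35.3 ± 7.53 in the next class, layer 4/5.

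Hs3st2, a neuronal enzyme whose product has been linked to tau phosphorylation, had its highest level in excitatory neuron-like nuclei, where the 11 mice ran from 162 to 335 CPM with a mean of 221 ± 54.1. Non-transgenic mice had 173, 177, 205 and 306 CPM, P301S mice 193, 162 and 225, knockout mice 216 and 204 and active IKKβ mice 335 and 232. Both active IKKβ mice lay above the P301S and knockout mice, with a log2 fold change of 0.55 ± 0.22 (SE) against P301S mice that was not called by edgeR (adjusted p = 0.836) and was 0.25 without active IKKβ replicate 1 and 0.28 with breeding line as a covariate, and the non-transgenic mice overlapped every other group. The whole range lay apart from the next type, inhibitory neuron-like nuclei at 71.7 ± 26.6 CPM. Hs3st2 was highest in layer 5 intratelencephalic neurons (584 ± 141 CPM), layer 6 corticothalamic neurons (435 ± 143) and layer 6b (414 ± 137), which overlapped. Hs3st4, a related enzyme, was highest in deep layers. It had 1282 ± 89.4 CPM in excitatory neuron-like nuclei, apart from striatal projection neuron-like nuclei at 526 ± 65.5, and within the cortex it was highest in layer 6b at 4937 ± 213 CPM and in layer 6 corticothalamic neurons at 4343 ± 311 CPM. Near-projecting neurons came next at 2505 ± 238 CPM, apart from both layer 6 corticothalamic neurons above and claustrum neurons below (1128 ± 174). In excitatory neuron-like nuclei Hs3st4 had 1211, 1455, 1179 and 1225 CPM in non-transgenic mice, 1346, 1320.2 and 1384 in the P301S group, 1222 and 1327 in knockout mice and 1196 and 1239 in active IKKβ mice. The active IKKβ mice lay below the P301S mice (-0.16 ± 0.11, SE, edgeR adjusted p = 0.837, or -0.07 with breeding line as a covariate), and the other pairs of groups overlapped.

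Hs3st5, whose product can make binding sites for antithrombin and for a herpes virus glycoprotein, was highest in neurons. It reached 290.3 ± 25.3 CPM in striatal projection neuron-like nuclei, 212 ± 38.2 in inhibitory and 132 ± 17.1 in excitatory neuron-like nuclei, and the last lay apart from oligodendrocyte precursor-like nuclei at 62.5 ± 10.3. Its striatal values were 286, 300.7, 295 and 300.3 CPM in non-transgenic, 289, 290.1 and 245 in P301S, 302 and 282 in knockout and 344 and 259 in active IKKβ mice. The groups overlapped there too. In cortex, Lamp5 neurons (324 ± 48.4 CPM) and layer 6 corticothalamic neurons (324 ± 32.4) shared the highest level of Hs3st5.

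Both 6-O-sulfotransferases, which add sulfate to glucosamine and so shape growth factor binding, were highest among the types in striatal projection neuron-like nuclei. Hs6st2, an X-linked gene, had 277 ± 33.9 CPM there, 131 ± 21.6 in inhibitory and 96.7 ± 8.82 in excitatory neuron-like nuclei, and the last lay apart from oligodendrocyte precursor-like nuclei at 61.7 ± 11.1. Hs6st3 had 2560 ± 531 CPM in striatal projection neuron-like nuclei and 1835 ± 286 in excitatory neuron-like nuclei, which lay apart from inhibitory neuron-like nuclei at 1086 ± 102. In the striatal nuclei the non-transgenic mice had 2304, 2761, 1578 and 2322 CPM of Hs6st3 and the P301S mice 2308, 2585 and 3042, with 2742 and 2313 in knockout mice and 3700.3 and 2509.7 in active IKKβ mice. For Hs6st2 the values were 300.8, 284, 332 and 276 CPM in non-transgenic and 289, 281 and 228 in P301S mice, with 284 and 287 in knockout mice and 276 and 206 in active IKKβ mice. The groups overlapped for Hs6st3, and for Hs6st2 the knockout mice lay above the active IKKβ mice while the other pairs of groups overlapped. This separation of the smallest groups is a description, with no share over all genes. Layer 4/5 neurons held the highest level of Hs6st3 among the cortical classes (3898 ± 373 CPM), above its mean in the striatal nuclei.

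**Figure D1:**
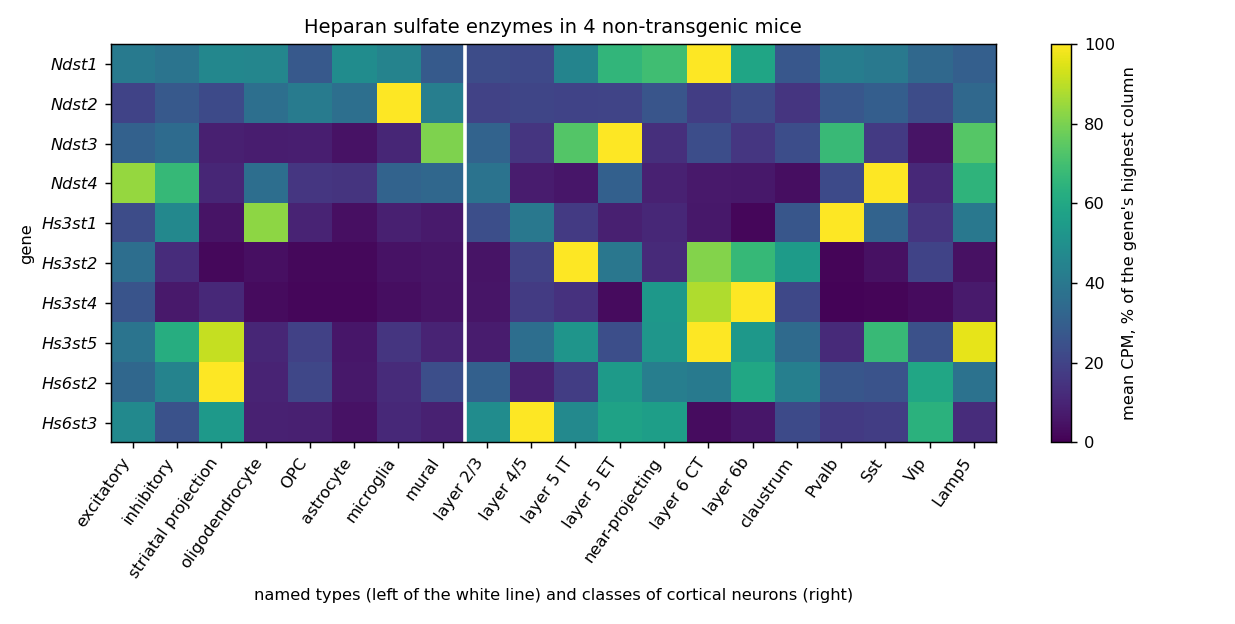
Mean CPM of the 10 enzymes (rows) in 4 non-transgenic mice for 8 tested types (columns left of the white line) and 12 classes of cortical neurons (right), each as a percentage of the highest column of that gene. Hs3st4 peaks in the layer 6 classes and Hs6st3 in layer 4/5, while Ndst1 is spread over more columns and Ndst2 is highest in microglia-like nuclei.

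In oligodendrocyte-like nuclei the level of Ndst4 separated the mice by the P301S transgene. Non-transgenic mice had 41.5, 23.6, 15.3 and 46.0 CPM, whereas P301S mice had 347, 316 and 319. The knockout P301S mice had 281 and 251 CPM, and the active IKKβ P301S mice 296 and 271. All 7 mice with the transgene lay above all 4 without it, and the lowest of the 7 was 5.46 times the highest of the 4. The mean of P301S mice was 10.4 times, and that of all 7 mice 9.41 times, the mean of non-transgenic mice. The fitted log2 fold changes were 3.33 ± 0.21 (SE) for P301S minus non-transgenic mice and 3.16 ± 0.19 for the mean of the 3 P301S groups minus non-transgenic mice. Of the 12979 genes tested in these nuclei, 37 (0.285%) had all 7 mice above all 4. These values chose the gene and carry no test.

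**Figure D2:**
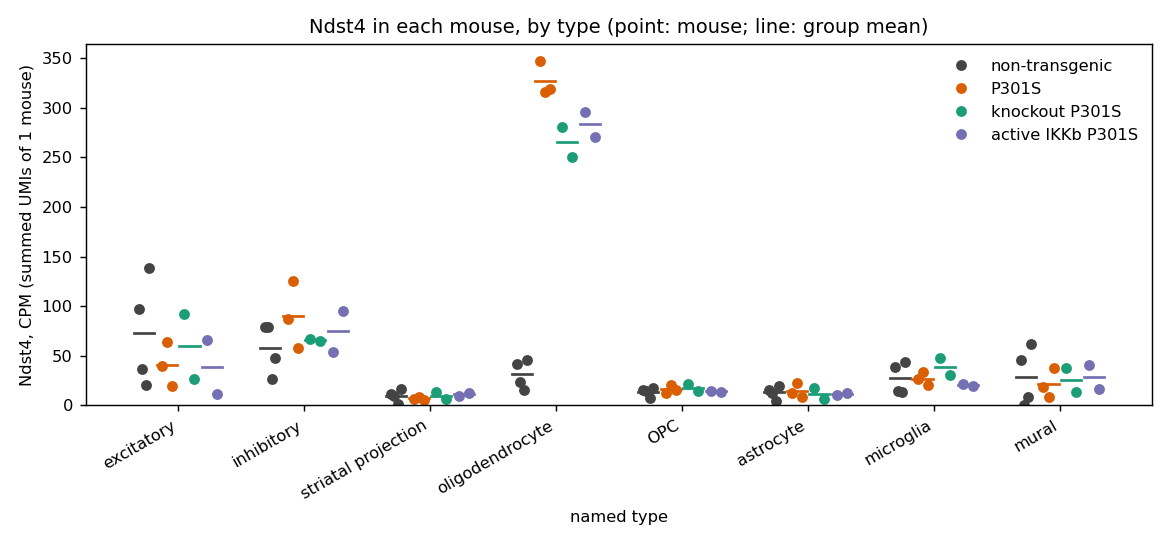
Ndst4 in CPM for each of the 11 mice in the 8 tested types, with points coloured by genotype group and a line at each group mean. In oligodendrocyte-like nuclei the 7 mice with the transgene sit between 251 and 347 CPM, above the 4 non-transgenic mice at 15.3 to 46.0, while in the other types the non-transgenic mice overlap each of the P301S groups.

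The mice with a changed IKKβ had Ndst4 levels near those of the P301S mice. The log2 fold change against P301S mice was -0.31 ± 0.22 (SE) in knockout mice and -0.20 ± 0.22 in active IKKβ mice, which share the P301S mice as controls. With age as a covariate these values were -0.56 ± 0.28 and -0.13 ± 0.22, and without active IKKβ replicate 2 the second was -0.12. Both groups had all their values below the lowest P301S mouse. The P301S values are those that chose the gene, and no share over all genes is given for this separation.

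Counted from the same UMIs by which the gene was chosen, the share of nuclei with Ndst4 separated the mice in the same way. It is a description and no further measurement. In non-transgenic mice 2.98% to 9.99% of oligodendrocyte-like nuclei had at least 1 UMI of Ndst4 (median 5.69%), and in the 7 mice with the transgene 40.2% to 45.3% did (median 43.5%). The median depth per nucleus overlapped, at 2078 to 2592 UMIs and 1855 to 2882.5 UMIs. Thinned to 1000 UMIs per nucleus, the shares were 1.46% to 4.21% and 20.1% to 27.5%, with 40 of 5637 and 82 of 12780 shallower nuclei left out. Nuclei with at least 2 UMIs of Ndst4 made up 0.361% to 1.72% in non-transgenic mice and 17.1% to 23.0% in mice with the transgene. The highest count in 1 nucleus was 5 and 11 UMIs in the same order.

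**Figure D3:**
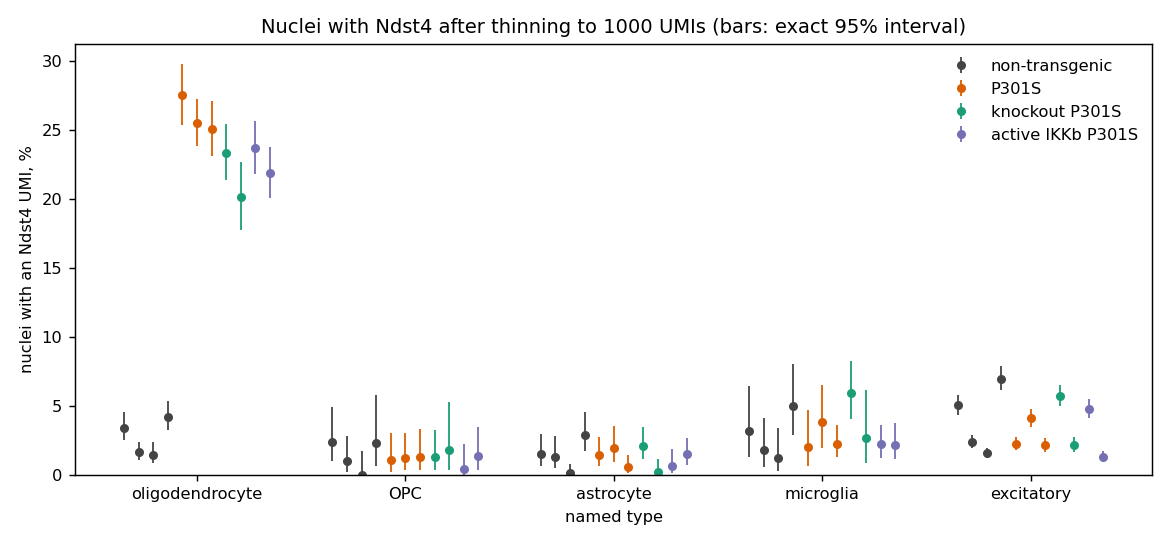
Percentage of nuclei with an Ndst4 UMI after thinning to 1000 UMIs, for each mouse and type, with exact 95% binomial intervals that cover counting error only. The mice with the transgene lie at 20.1% to 27.5% in oligodendrocyte-like nuclei, and no mouse exceeds 6.98% in the other types shown. The oligodendrocyte shares come from the UMIs by which the gene was chosen.

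In other glia the mice with and without the transgene overlapped. Thinned shares in microglia-like nuclei were 1.19% to 5.0% in non-transgenic mice and 2.04% to 5.89% in mice with the transgene, at median depths of 1698.5 to 2148.5 and 1450 to 2495 UMIs. In astrocyte-like nuclei they were 0.142% to 2.89% and 0.212% to 2.09%, and in oligodendrocyte precursor-like nuclei 0% to 2.40% and 0.405% to 1.83%. The mouse at 0 had none in 213 nuclei after thinning, which allows a thinned share of up to 1.72% (exact 95% interval). Before thinning, 7 of these nuclei (3.29%) held Ndst4. The thinned shares in oligodendrocyte-like nuclei of non-transgenic mice lay within the range of these glia, whereas before thinning the highest of them, 9.99%, lay above the highest in these glia, 9.38% in microglia-like nuclei. Neuronal transcripts, of which all 10 listed genes were above 0 in oligodendrocyte-like nuclei, summed to 5120 to 7238 CPM in non-transgenic mice and 4449 to 6818 in mice with the transgene. Among the nuclei at or under the median neuronal share of their mouse, a split chosen after the data were seen, Ndst4 had 14.8 to 43.9 CPM and 268 to 349 CPM in the same order. These values are part of those by which the gene was chosen. The part of RNA released from other cells in these UMIs was not tested.

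Ndst4 in excitatory neuron-like nuclei showed no separation by genotype. The values were 97.5, 36.2, 20.4 and 139 CPM in non-transgenic mice, 39.3, 64.2 and 19.2 in the P301S group, 91.9 and 27.0 in knockout mice and 65.9 and 11.9 in active IKKβ mice. The mean was 0.559 times that of non-transgenic mice in P301S mice, and the log2 fold change of -0.84 ± 0.72 (SE) was not called by edgeR and ran from -1.34 without P301S replicate 2 to -0.35 without non-transgenic replicate 4, with -0.49 without P301S replicate 3. Most of these UMIs, 78.7%, came from 1 unnamed cluster of 2809 nuclei led by Abi3bp, Zfp536 and Cntnap5c, where Ndst4 had 649 CPM and 69.3% of nuclei held a UMI. The number of its nuclei differed between mice, from 52 in an active IKKβ mouse to 510 in the other, and its Ndst4 level ran from 205 to 926 CPM. The non-transgenic mice lay in the same order for Ndst4, from replicate 3 to 2, 1 and 4, in 6 of 8 tested types, oligodendrocyte-like nuclei among them.

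In the remaining types Ndst4 was measured with no call in P301S mice. The means were 1.54 times those of non-transgenic mice in inhibitory neuron-like nuclei (log2 fold change 0.56 ± 0.35, or 0.24 without P301S replicate 2 and 0.32 without non-transgenic replicate 3), 1.18 times in oligodendrocyte precursor-like nuclei and 1.10 times in astrocyte-like nuclei. They were 0.963 times those of non-transgenic mice in microglia-like nuclei and 0.748 times in striatal projection neuron-like nuclei. Mural-like nuclei had too few UMIs of Ndst4 to be tested. Within inhibitory neuron-like nuclei, a cluster of 210 Sst neurons led by Hhip, Nos1 and Sst had 448 CPM, and 81.4% of its nuclei held Ndst4.

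The genes nearest to Ndst4 on chromosome 3 were not called in oligodendrocyte-like nuclei. Ndst3, whose start lies 1.71 Mb away (chromosome 3, 123526166 to 123690853, minus strand), had 41.5, 40.9, 36.7 and 65.9 CPM in non-transgenic mice, 33.9, 36.1 and 22.2 in the P301S group, 48.9 and 37.3 in knockout mice and 38.5 in both active IKKβ mice. The nearest tested genes within 1 Mb were Ugt8a, which makes the myelin lipid galactosylceramide, at 0.535 Mb, and Arsj, an arylsulfatase, at 0.960 Mb. Their log2 fold changes in P301S mice were -0.08 ± 0.14 and 0.09 ± 0.38 (SE), and neither was called. Leaving out Ndst4, which was chosen by such a value, 9 of 951 genes of chromosome 3 tested in any type (0.946%) were called in at least 1 type for the mean of the 3 P301S groups against non-transgenic mice, compared with 37 of 17726 (0.209%) on the other chromosomes. In oligodendrocyte-like nuclei 0 of 664 such genes of chromosome 3 were called, and 0 of 12307 on the other chromosomes. There 5.57% of these genes of chromosome 3 had an unadjusted p under 0.05 by edgeR, compared with 3.34% on the other chromosomes. Over all genes and types, the 54 calls of this contrast became 9 without non-transgenic replicate 2. With breeding line as a covariate they became 109. The 9 called genes lay between 69316861 and 140953247 and were named after their values were seen. Their starts lay at -56.1 (Ppm1l), -17.6 (Csf1), -4.23 (Rwdd3), 2.38 (Alpk1) and 2.39 Mb (Tifa) from that of Ndst4. Further on were Bank1 at 10.9 Mb, Gm43049 at 15.4 Mb and Gm32754 and 4930590L14Rik, both at 15.5 Mb. In microglia-like nuclei Tifa, Csf1 and Alpk1 were higher, and Ppm1l and Bank1 were lower. Alpk1 and Rwdd3 were higher in excitatory neuron-like nuclei. So were Gm43049, Gm32754 and 4930590L14Rik, which were also called in other types. They had 0 to 4 UMIs per non-transgenic mouse in excitatory neuron-like nuclei. In oligodendrocyte-like nuclei Rwdd3 was not called (log2 fold change 0.90 ± 0.19, SE, for the mean of the 3 P301S groups). The 7 mice with the transgene had 9.73 to 18.5 CPM of Rwdd3 there, above the 4.84 to 8.23 of non-transgenic mice. In that type 0.285% of genes did the same. Whether the position of the transgene or the strain of the surrounding chromosome has a part in these calls or in the level of Ndst4 was not tested.

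**Figure D4:**
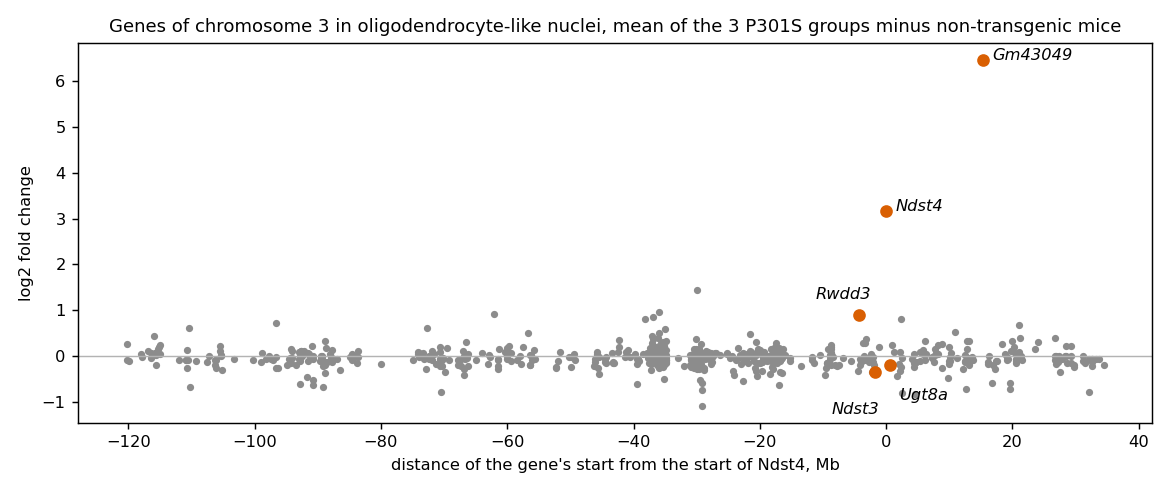
Log2 fold change of the tested genes of chromosome 3 in oligodendrocyte-like nuclei, mean of the 3 P301S groups minus non-transgenic mice, against the distance of each gene's start from that of Ndst4 in Mb. Ndst4 stands at 3.16, Ndst3 at -0.35 and Ugt8a at -0.19, and Gm43049, 15.4 Mb away, has a fitted value only, since it had no UMI in these nuclei of any non-transgenic mouse.

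The next question was whether the other members differed between P301S and non-transgenic mice. Without Ndst4 in oligodendrocyte-like nuclei there were 71 pairs of a member and a tested type, and 0 were called by edgeR, where 0.0221% of all gene and type pairs were. There were 8 pairs whose unadjusted p was under 0.05, all 8 lower in P301S mice, where 4.19% of all pairs passed that limit. DESeq2 called 0 of 79 pairs (0.0118% of all pairs were), and 8 had an unadjusted p below that limit, where 1.41% of all pairs did. The median log2 fold change of the members was -0.12 by both tools. For the mean of the 3 P301S groups edgeR called 0 of 71 (0.0569% of all pairs were called), and 7 pairs had an unadjusted p under 0.05, 6 of them lower, where 5.76% of all pairs did. DESeq2 called 0 of the 62 pairs to which it gave an adjusted p (0.0928% of all such pairs were called), and 6 of 79 had an unadjusted p below that limit, where 2.17% of all pairs did. The median of the members was -0.05 by edgeR in this contrast, and over all genes the edgeR medians of both contrasts were 0.00.

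Ndst3, on the same chromosome as Ndst4, had the most pairs at an unadjusted p under 0.05 for the mean of the 3 P301S groups. It was lower in 7 of 8 tested types in P301S mice. Over the types its median was -0.39 on the log2 scale, and the lowest adjusted p was 0.72 (edgeR). In mural-like nuclei, where its level is highest, non-transgenic mice had 567, 402, 419 and 456 CPM of Ndst3, and P301S mice had 292, 229 and 340.3. Knockout mice had 217 and 320.2 CPM and active IKKβ mice 471 and 390.5. P301S and non-transgenic mice did not overlap there, but the active IKKβ mice overlapped the non-transgenic mice, and the log2 fold change of -0.67 ± 0.22 (SE) had an adjusted p of 0.967. The separation is a description, with no share over all genes, and rests on 27 to 81 nuclei per mouse. In oligodendrocyte-like nuclei the fold change of Ndst3 was -0.62 ± 0.20 (adjusted p = 0.935), or -0.39 without non-transgenic replicate 4, and in inhibitory neuron-like nuclei -0.38 ± 0.16 (adjusted p = 0.956). The oligodendrocyte level of Ndst3 in non-transgenic mice was 8.09% of its highest type or class. The part of RNA released from other cells in it was not tested. Oligodendrocyte precursor-like nuclei were the exception, at 0.28 ± 0.18, or 0.06 with doublets kept.

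Hs3st2 was lower in 7 of 7 types in P301S mice, from a log2 fold change of -0.68 ± 0.29 (SE) in oligodendrocyte-like nuclei to -0.00 ± 0.35 in inhibitory neuron-like nuclei. Hs6st3 was lower in 6 of 8 types, with -0.38 ± 0.14 in oligodendrocyte-like nuclei, -0.30 ± 0.14 in astrocyte-like nuclei and -0.30 ± 0.11 in oligodendrocyte precursor-like nuclei. Without non-transgenic replicate 4 the oligodendrocyte value of Hs3st2 was -0.26. That of Hs6st3 was -0.24 without non-transgenic replicate 3 and -0.21 with doublets kept, and its astrocyte value was -0.19 without P301S replicate 3. None passed the edgeR test, with lowest adjusted p of 0.657 for Hs3st2 and 0.695 for Hs6st3. For the mean of the 3 P301S groups, Hs3st2 was lower in 4 of 7 types and higher in 3, and Hs6st3 was lower in 5 of 8 and higher in 3. In non-transgenic mice the oligodendrocyte level was 4.07% of the highest type or class for Hs3st2 and 9.07% for Hs6st3. Neuronal transcripts in oligodendrocyte-like nuclei summed to 5902, 5448 and 4449 CPM in P301S mice, against 5120 to 7238 in non-transgenic mice. The part of RNA released from neurons in these glial values was not tested. The types come from the same mice, so counts of types are not independent. Hs6st2 was lower in 7 of 8 types and Hs3st4 in 6 of 8, while Ndst1, Ndst2, Hs3st1 and Hs3st5 were split between higher and lower types. For the mean of the 3 P301S groups, Ndst1 was higher in 6 of 6 types, with 0.33 ± 0.13 in oligodendrocyte-like nuclei, a difference that was not called and that was 0.21 without non-transgenic replicate 3 or with doublets kept. The 7 mice with the transgene, at 19.6 to 25.0 CPM, overlapped the non-transgenic mice, at 12.1 to 20.7. Besides Ndst4 in oligodendrocyte-like nuclei, the member with all 7 mice above all 4 was Ndst2 in astrocyte-like nuclei, at 11.9 to 15.6 CPM against 10.3 to 11.6, in a type where 0.445% of genes did the same. Over the 8 tested types, 0.552% of all pairs had all 7 mice above and 0.182% all 7 below the non-transgenic mice.

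**Figure D5:**
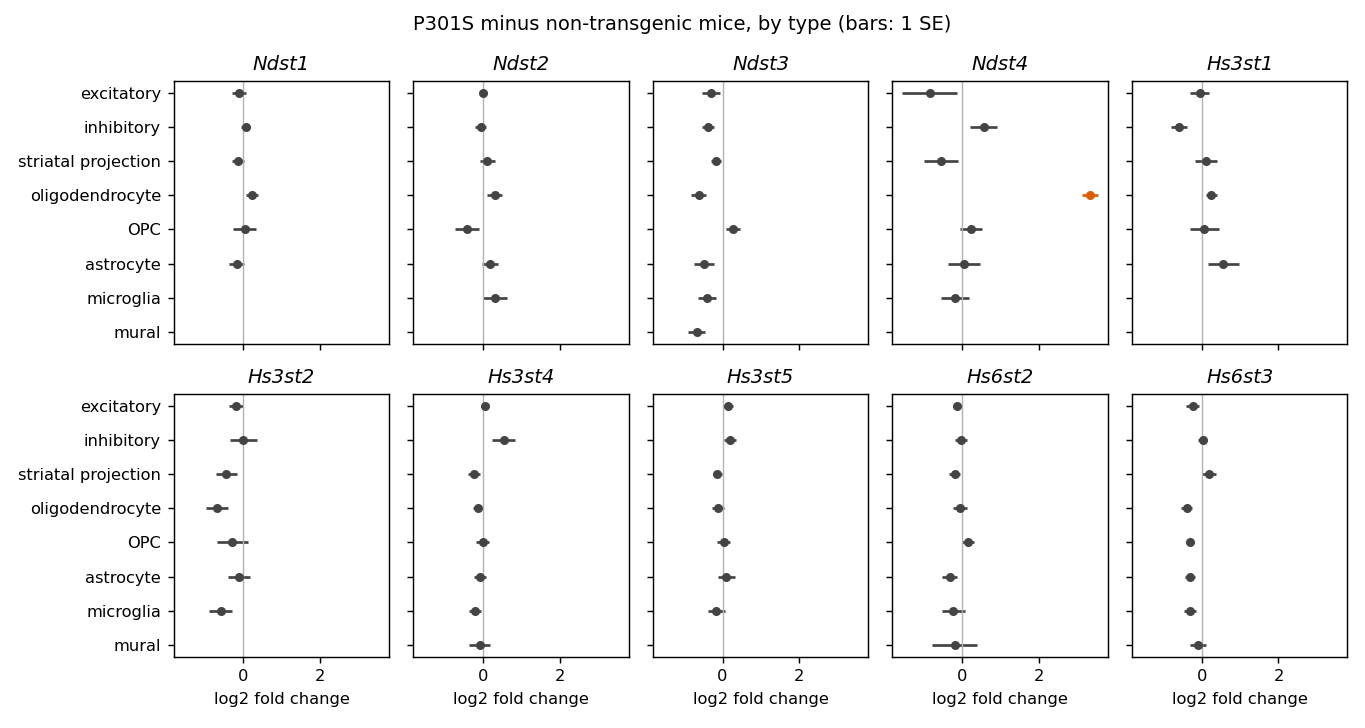
Log2 fold change of each of the 10 enzymes between P301S and non-transgenic mice in the tested types, with bars of 1 SE. The coloured point is Ndst4 in oligodendrocyte-like nuclei (3.33), by which the gene was chosen, and the points of Ndst3 lie below 0 in 7 of 8 types.

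Within the 12 classes of cortical neurons, 0 of 113 pairs of a member and a class were called by edgeR in P301S mice, where 0.0141% of all pairs were, and 17 had an unadjusted p under 0.05, 16 of them lower, where 3.54% of all pairs did. For the mean of the 3 P301S groups 0 were called (0.0243% of all pairs were), and 19 passed the unadjusted limit, all 19 lower, where 5.7% of all pairs did. In knockout and active IKKβ mice 0 were called (0.000782% and 0.00469% of all pairs were), and 7 of 113 passed the unadjusted limit in each, where 6.31% and 5.88% of all pairs did, so the members lay near the background. DESeq2 was not run on these classes. Ndst3 was lower in 11 of 12 classes in P301S mice and, for the mean of the 3 P301S groups, also in 11 of 12, with 6 classes at an unadjusted p under 0.05 in each. For the mean of the groups, its lowest adjusted p was in Sst neurons, with a log2 fold change of -0.57 ± 0.12 (SE, adjusted p = 0.160). There Ndst3 had 74.5 to 117 CPM in non-transgenic mice and 54.9 to 76.0 CPM in the 7 mice with the transgene, so the groups overlapped slightly. Ndst4 was lower in 8 of 10 classes in P301S mice, with -0.92 ± 0.34 in layer 2/3 neurons, not called, which is the opposite side of 0 from oligodendrocyte-like nuclei.

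The knockout and active IKKβ contrasts compare these enzymes between P301S mice with a changed and an intact IKKβ. Cre differs between the same groups and line and age differ in part, so NF-κB signalling in microglia cannot be told apart from these. Against P301S mice, 0 of 71 pairs were called in knockout mice (0.00211% of all pairs were), and 7 had an unadjusted p under 0.05, 5 of them higher, where 8.58% of all pairs did. DESeq2 called 0 there (0.00971% of all pairs were), and 3 of 79 pairs passed the unadjusted limit, where 3.0% of all pairs did. In active IKKβ mice 0 of 71 were called (0.155% of all pairs were), and 5 had an unadjusted p under 0.05, 2 higher and 3 lower, where 5.89% of all pairs did. DESeq2 called 0 (0.0806% of all pairs were), and 2 of 79 passed the unadjusted limit, where 2.1% of all pairs did. By both tools these shares of the members lay near those of all pairs. The median log2 fold changes of the members were 0.15 and 0.06. In oligodendrocyte precursor-like nuclei Hs3st4 had 112 and 140.5 CPM in knockout mice against 84.3, 63.0 and 83.1 in P301S mice (0.70 ± 0.20, adjusted p = 0.414, or 0.47 with doublets kept), and non-transgenic mice ran from 59.0 to 109.8. With 2 mice in each of these groups, intervals were wide. For Ndst3 in microglia-like nuclei, the cells targeted by the Cre, the knockout difference was 0.61 ± 0.26 (adjusted p = 0.498), or 0.14 with age as a covariate and 0.31 without P301S replicate 3. In non-transgenic mice these glial levels were 1.58% (Hs3st4) and 10.6% (Ndst3) of the highest type or class of each gene. The part of RNA released from neurons in them was not tested.

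The rest of the pathway was read from a list of 45 genes, which gave 258 pairs of a gene and a type. In P301S mice edgeR called 0 of 258 and DESeq2 0 of 347, while 15 pairs (5.81%, against 4.19% of all pairs) and 8 pairs (2.31%, against 1.41%) had an unadjusted p under 0.05. In knockout mice both tools also called 0, while 25 pairs (9.69%, against 8.58% of all pairs) and 17 pairs (4.90%, against 3.0%) passed the unadjusted limit. For active IKKβ mice edgeR called 1 (0.388%, against 0.155% of all pairs) and DESeq2 0, and 20 (7.75%, against 5.89%) and 15 pairs (4.32%, against 2.1%) passed that limit. For the mean of the 3 P301S groups each tool called 1, a different gene (0.388% by edgeR, against 0.0569% of all pairs, and 0.426% by DESeq2, against 0.0928%), and 21 (8.14%, against 5.76%) and 15 pairs (4.32%, against 2.17%) passed it. The linker enzymes, the exostosins of the chain, the sulfate donor genes, the extracellular sulfatases and heparanases and the lysosomal enzymes had no called pair in any of the 4 contrasts by either tool.

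The 2 genes of this list that edgeR called were in microglia-like nuclei. Hs6st1, another 6-O-sulfotransferase, was higher in active IKKβ mice, at 139 and 158 CPM against 87.3, 58.2 and 89.7 in P301S mice (0.88 ± 0.23, edgeR adjusted p = 0.0465), in a type where 1.62% of all genes were called. Knockout mice had 63.2 and 108 CPM and non-transgenic mice 59.8, 76.8, 104 and 112. DESeq2 did not call it (adjusted p = 0.0998). The call was also lost without non-transgenic replicate 2, P301S replicate 1 or 2 or either active IKKβ mouse, with doublets kept and with age or breeding line as a covariate. Gpc4, a glypican that carries heparan sulfate chains, was higher over the 3 P301S groups (2.62 ± 0.53, adjusted p = 0.0291), where 0.428% of the genes of that type were called. It had 5.20, 3.66, 0 and 1.42 CPM in non-transgenic mice, 10.6, 8.32 and 17.5 in the P301S group, 8.21 and 8.15 in knockout mice and 40.8 and 28.5 in active IKKβ mice. All 7 lay above all 4, though the non-transgenic values stand for 0 to 2 UMIs per mouse, and in microglia-like nuclei 0.664% of genes did the same. Leaving out any non-transgenic mouse, P301S replicate 3 or knockout replicate 1 ended this call, as did keeping doublets, and DESeq2 gave it no adjusted p. DESeq2 instead called Gpc6, another glypican, lower in striatal projection neuron-like nuclei over the 3 P301S groups (log2 fold change -0.49 ± 0.13, SE, adjusted p = 0.034), where it called 0.0928% of all pairs of a gene and a type. It had 496, 402, 597 and 455 CPM in non-transgenic mice, 397, 458 and 371 in the P301S group, 327 and 457 in knockout mice and 292 and 243 in active IKKβ mice. The groups overlapped except the active IKKβ mice, which lay below all the others, and edgeR did not call it (adjusted p = 0.63). No share over all genes is given for that separation.

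The genes whose pattern was most like that of Ndst4 depended on what was compared. Over 23 types and classes, each the mean of the mice of all groups with at least 20 nuclei, 15603 genes were compared. The highest Pearson correlations were those of Gm12146 (r = 0.725), Gm5535 (0.718), Endod1 (0.716), Zfp536 (0.71) and Nbas (0.702). The points share libraries, and 4 of these 5 genes were highest in oligodendrocyte-like nuclei, where the mean of Ndst4 is set by the 7 mice with the transgene, the values by which it was chosen. In non-transgenic mice Ndst4 had its highest means in neurons, so this likeness describes the pooled mice alone. Over the 11 mice in oligodendrocyte-like nuclei, the highest of 12979 genes were Cftr (r = 0.921), Gm43049 (0.916), Adh5 (0.90), Fam105a (0.899) and Prdm2 (0.897). These are again the values by which Ndst4 was chosen, and any gene that separates the 7 from the 4 would correlate.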

How the data were processed

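Nuclei of frozen cortex from 11 mice were profiled with the 10x Chromium 3′ v3 kit, 1 library per mouse. The authors aligned the reads with Cell Ranger 3.1.0 to mm10 and deposited raw counts of UMIs in 1 matrix per mouse (genes by barcodes), in which reads on unspliced transcripts are included. The deposited counts were not normalised.

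Of 114118 barcodes, 112539 had 300 to 8000 genes and at most 5% mitochondrial UMIs, and 9474 of these (8.42%) were called as doublets by simulation at 0.8% per 1000 barcodes and left out. Counts were scaled to 10000 UMIs per nucleus, reduced to 15 principal components of 2000 variable genes and clustered by the Leiden method at a resolution of 0.1 (0.3 for neurons; leidenalg 0.10.2, scikit-learn 1.9.0). Clusters were named where at least 3 markers were raised 2-fold over the median cluster. A cluster of 1487 nuclei led by mitochondrial genes stayed unnamed. DoubletFinder and MAST, which the study used, were not run.

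UMIs were summed per mouse and type and tested on all 11 mice with 1 term per genotype group by edgeR 4.0.16 (quasi-likelihood test, TMM, filterByExpr, R 4.3.3), which was tested on simulated data. A call needed a Benjamini-Hochberg adjusted p under 0.05 over all genes of the type and an absolute log2 fold change over 0.1. SEs are the log2 fold change divided by the square root of F. CPM scale the raw UMIs of a type in a mouse to a total of 1000000. Of 31053 genes, 31011 were matched to GENCODE vM21 on GRCm38, from which coordinates come. The smallest tested type had 27 nuclei in a mouse. Each library is 1 mouse, and p-values measure the spread between mice. Intervals on shares are exact (Clopper-Pearson, 95%) and cover counting error only.

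The members and lists were chosen with earlier results of these data known. The rule for named genes took the 10 members in every type, with values by mouse where a member had its highest level among the tested types (the text gives the types at the ends of each order and the fits by counts and range), other heparan sulfate genes that were called, the 5 genes most like Ndst4 over types and classes and the 5 most like it over mice (Pearson r of log2(CPM + 1), a mean of at least 5 CPM in one type for the first), the tested genes within 1 Mb of its start and Ikbkb and Prnp as checks, to which Xist was added after the data were seen. The alternatives were DESeq2 1.42.0, RLE size factors, no filter on low counts, covariates for age and breeding line, a block for the number in the sample title, doublets kept, a resolution of 0.2 and leaving out each mouse. Reading only nuclei with a low neuronal share was added after the data were seen.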

Additional observations from a re-analysis of the deposited data

Results flagged for a closer look

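Among 80 groups of 4 non-transgenic mice, 1 for each member and tested type, 5 held a mouse whose value stood apart from the other 3 by Dixon's criterion at the 95% level. Chance alone gives such a value in about 1 in 20 groups. Hs3st4 in excitatory neuron-like nuclei was 1455 CPM in replicate 2, against 1179 to 1225 in the others. In inhibitory neuron-like nuclei Hs3st4 was 142 CPM in replicate 3, against 392 to 425. Ndst1 in microglia-like nuclei was 24.2 CPM in replicate 4, against 14.6 to 15.6. Ndst3 in microglia-like nuclei was 47.5 CPM in replicate 2, against 64.0 to 66.9, and in oligodendrocyte-like nuclei it was 65.9 CPM in replicate 4, against 36.7 to 41.5. Without non-transgenic replicate 4 the log2 fold change of Ndst3 between P301S and non-transgenic mice was -0.39 in these nuclei, in place of -0.62.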

How the results depend on the processing

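Ndst4 in oligodendrocyte-like nuclei, chosen by these values, was higher in P301S mice under every alternative run, which is a description with no test. Its log2 fold change ran from 3.14 to 3.57 when each mouse was left out, the highest without non-transgenic replicate 4, and for the mean of the 3 P301S groups from 2.97 to 3.40. In knockout mice it was -0.40 to -0.23 and in active IKKβ mice -0.29 to -0.12, and with age as a covariate the knockout value was -0.56. In nuclei with a low neuronal share, added after the data were seen, the values were 3.22, -0.23, -0.14 and 3.09 in the order P301S, knockout, active IKKβ and all P301S groups.

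The number of members called, leaving out Ndst4 in oligodendrocyte-like nuclei, stayed at 0 in all alternatives except these. Without the filter on low counts it was 3 for P301S (Hs3st2, Hs6st3 and Ndst3 in oligodendrocyte-like nuclei), 1 for knockout (Hs3st4 in oligodendrocyte precursor-like nuclei) and 1 for all P301S groups (Ndst3 in striatal projection neuron-like nuclei), in a fit that, of 177930 pairs of all genes and types, called 433 for P301S, 537 for knockout, 934 for active IKKβ and 568 for all P301S groups, in place of 21, 2, 147 and 54 of 94953. With each mouse left out it was 0 to 0 for P301S, knockout and active IKKβ and 0 to 1 for all P301S groups, the 1 being Hs3st1 in inhibitory neuron-like nuclei without active IKKβ replicate 1, where 111 of 99515 pairs of all genes were called.

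The number of other heparan sulfate genes called was 4 for P301S, 4 for knockout, 6 for active IKKβ and 7 for all P301S groups without the filter, in the same fit with its larger number of calls over all genes. For knockout it was 1 with age as a covariate (Gpc5 in mural-like nuclei) and 0 to 2 with each mouse left out. For active IKKβ it was 0 with DESeq2, breeding line, age, the replicate block or doublets kept, and 0 to 2 with each mouse left out. For all P301S groups it was 2 with breeding line, 0 with the replicate block or doublets kept, and 0 to 1 with each mouse left out. The causes were not tested.

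The numbers in the sample titles did not pair the mice. Deviations from the group means correlated at -0.20 to 0.41 (median 0.03) over 10 pairs of the same line and number and at a median of -0.01 over pairs with other numbers. With the number as a replicate block, Ndst4 was at 3.32, -0.30, -0.20 and 3.15 in the same order, and all-gene calls went from 21 to 11 for P301S, 2 to 1 for knockout, 147 to 151 for active IKKβ and 54 to 31 for all P301S groups. With breeding line as a covariate, all-gene calls were 47, 5, 80 and 109 in that order. Of 5388 log2 fold changes of single members under an alternative, 205 moved by more than 1 SE, and of 1040 mean levels 27 moved by more than 1 SD.

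Groups of 2 mice, the sparse counts of Ndst1 and Ndst2, and types with few nuclei limit the precision. Leaving out a mouse of a group of 2 leaves 1 mouse, assumed to vary like the other groups. Knockout and active IKKβ mice came from different lines, while the P301S mice came from both.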
